A study of Mus musculus with 6 samples.

Results

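The interferon response genes described here are 36 named genes of the interferon pathway, given as a list of 4 receptor subunits, 5 Stat and Irf transcription factors and 27 effectors. Each gene was read from its brightest probe set over the 6 arrays, and 34 of the 36 were measured among 18193 genes in all. The effector Isg15 was carried by a probe set shared with another gene, and the effector Ifi44 had no probe set under its symbol, so neither was analysed here. All values are log2 of the deposited array intensities unless stated otherwise.

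The RNA came from bone marrow LSK cells of adult mice, taken from animals 10 to 14 weeks old. LSK cells are the lineage-negative, Sca1-positive and Kit-positive fraction in which blood stem cells and the earliest multipotent progenitors lie. The study sorted them by surface CD34 and Flt3 into CD34+Flt3hi, CD34+Flt3- and CD34-Flt3- cells, with 2 arrays for each of the 3 groups, and asked which expression changes could go with their different function. The labels give no treatment, genotype or strain for any group. Whether the arrays of a group stem from different mice or different sorts is not stated, so a p-value here measures the spread between arrays only, and that spread may be technical. A number in each title, whose meaning is not given, parts the arrays into 3 codes. Replicate 2 of all 3 groups shares one number (code A), replicate 1 of CD34+Flt3hi and of CD34+Flt3- cells shares another (code B), and CD34-Flt3- replicate 1 has a number of its own (code C).

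Interferons are secreted proteins that cells release on sensing virus or other foreign nucleic acid. Type I interferons bind a receptor made of Ifnar1 and Ifnar2 and drive a complex that holds Stat2 and Irf9 to the interferon-stimulated response element, called ISRE below, of target promoters. Type II interferon, or interferon-gamma, binds Ifngr1 and Ifngr2 and acts mainly at a different element, called GAS. In mouse bone marrow both kinds of interferon can bring dormant stem cells into cycle, and the sort antigen Sca1 is itself encoded by an interferon-inducible gene, Ly6a, which was not analysed here.

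The ISRE is the letter pattern by which the type I response is read in DNA, and it was searched as GAAA, any 2 bases and GAAA on both strands (TTTC, any 2 bases and TTTC when read from the other strand) in RefSeq promoter windows of build GRCm38.p6. Each window ran from 250 bases before to 50 bases after a gene start, and overlapping matches were all kept. A window was found for 31 of the 36 listed genes, and 12 of the 31 held a match (38.7%), against 1079 of 27025 genes in the whole table (3.99%). By window, matches lay in 12 of 38 windows of the list (31.6%) and in 1131 of all 32851 windows (3.44%). The GAS pattern TTCNNNGAA was found for 11 of the 31 genes (35.5%) and for 2582 of all genes (9.55%). A match is a description of these letters and not a measured binding site. The sequences below are those of genes whose values are given further on. Each is shown 5′ to 3′ on the strand of the gene, with the ISRE letters in capitals.
Rsad2: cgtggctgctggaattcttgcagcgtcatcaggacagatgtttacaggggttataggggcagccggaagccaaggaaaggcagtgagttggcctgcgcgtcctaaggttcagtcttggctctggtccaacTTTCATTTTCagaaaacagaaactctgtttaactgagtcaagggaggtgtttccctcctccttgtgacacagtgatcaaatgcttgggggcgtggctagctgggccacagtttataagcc
Ifit1: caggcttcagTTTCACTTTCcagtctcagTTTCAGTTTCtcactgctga
Ifih1: gaagagaatcGAAACAGAAA
Stat2: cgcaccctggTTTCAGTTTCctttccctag
Oas1a: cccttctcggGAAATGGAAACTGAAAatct
Ifitm3: cagGAAAAGGAAActtctgaGAAACCGAAA
The Rsad2 stretch is the whole 250 bases upstream of its start, chr12:26456453-26456702 on the minus strand, and its single match begins at position -120 from the start. The Ifit1 stretch, chr19:34640775-34640823 on the plus strand, holds 2 separate matches, the first at position -104. Stat2 has 1 match, at position -222 (chr10:128270266-128270295, plus strand), and Oas1a has 2 overlapping ones from position -20 (chr5:120907526-120907555, minus strand). The matches of Ifih1 (chr2:62646214-62646233, minus strand, position 33) and Ifitm3 (chr7:141010716-141010745, minus strand, 2 matches from position 3) lie just inside the transcript. The windows of Ifngr2, Ifitm1 and Trim25, which are also described below, held no ISRE match.

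An array has no sequencing depth, so precision depends on how many arrays there are. The median linear intensity was 29.7 to 31.4 on each array, and background lay at a log2 of 4.50. Pearson's r across genes, which are not independent replicates, between the 2 arrays of a group was 0.990 in CD34+Flt3hi, 0.981 in CD34+Flt3- and 0.969 in CD34-Flt3- cells. The sort antigens followed the gates: Cd34 read 11.35 and 11.34 in CD34+Flt3hi, 10.51 and 10.68 in CD34+Flt3- and 8.78 and 9.45 in CD34-Flt3- cells, and Flt3 read 12.01 and 11.75, 8.84 and 9.81, and 7.65 and 9.16 in the same groups. Kit, common to all groups, read 8.82 to 10.99. The 3 comparisons were fitted together with limma and share arrays, so they are not independent of each other.

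Few members of the list passed the test between the sorted groups. Between CD34+Flt3hi and CD34-Flt3- cells 4 of 34 genes were called by limma at an adjusted p under 0.05 (11.8%), Ifngr2 higher and Ifih1, Ifitm1 and Rsad2 lower in CD34+Flt3hi cells, while 6.11% of all genes were called (2.62% higher and 3.5% lower). Between CD34+Flt3- and CD34-Flt3- cells 2 of 34 were called (5.88%), Ifngr2 higher and Rsad2 lower in CD34+Flt3- cells, against 2.1% of all genes (0.77% higher and 1.33% lower). Between CD34+Flt3hi and CD34+Flt3- cells limma called none, against 0.61% of all genes, and 2 members, Ifnar2 and Irf1, had an unadjusted p under 0.05. A moderated F test over the 3 groups called Ifngr2 (adjusted p = 0.00612) and Rsad2 (adjusted p = 0.0275), beside 4.67% of all genes.

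The direction of the differences was shared more widely than the calls. The mean was lower in CD34+Flt3- than in CD34-Flt3- cells for 26 of 34 members (76.5%), with a median log2 difference of -0.30, where 61.0% of all genes were lower with a median of -0.10. Relative to CD34-Flt3- cells, the mean in CD34+Flt3hi cells was lower for 23 members (67.6%), with a median of -0.26, against 57.7% and -0.07 over all genes. Between CD34+Flt3hi and CD34+Flt3- cells 11 members had the lower mean in CD34+Flt3hi cells (32.4%) and the median was 0.08, against 46.0% and 0.03. Without CD34-Flt3- replicate 1 the list medians came to -0.07 for CD34+Flt3- minus CD34-Flt3- cells (all genes -0.10) and -0.06 for CD34+Flt3hi minus CD34-Flt3- cells (all genes -0.07). Only 1 member, Mx2, had its highest mean in CD34+Flt3- cells (2.94%, against 22.6% of all genes), and 22 had it in CD34-Flt3- cells (64.7%, against 47.9%). Arrays that did not overlap between the groups were about as common as over all genes: 18 of 34 members for CD34+Flt3hi against CD34-Flt3- cells (52.9%, against 47.9%), 16 for CD34+Flt3- against CD34-Flt3- cells (47.1%, against 44.2%) and 14 for CD34+Flt3hi against CD34+Flt3- cells (41.2%, against 40.4%). Most of the first 2 sets were lower in the CD34+ cells, 15 members in each (44.1%), where 29.1% and 28.6% of all genes were lower without overlap. In bulk RNA, fewer cells of a type that express a gene and less RNA of it per cell cannot be told apart.

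**Figure D1:**
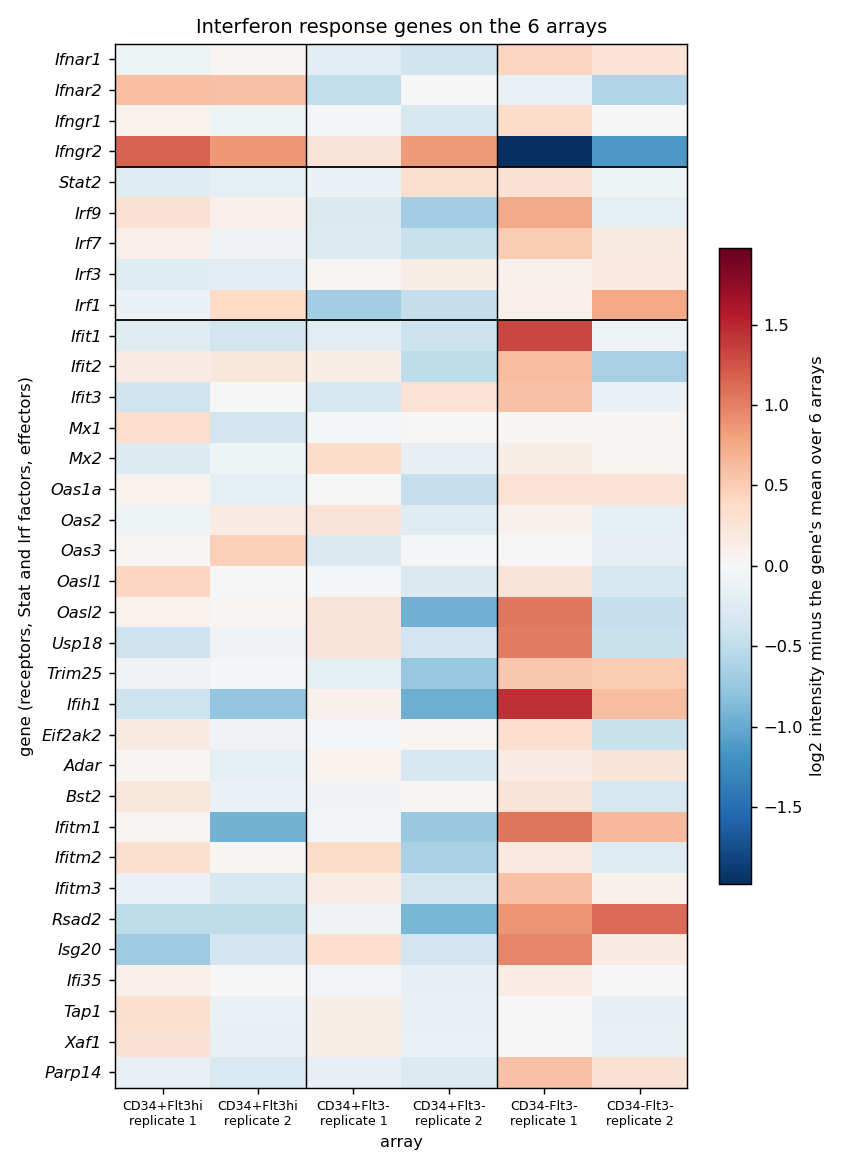
Log2 intensity of each of the 34 measured genes on each of the 6 arrays, minus that gene's mean over the 6 arrays (red higher, blue lower). Rows run from receptors through Stat and Irf factors to effectors, and columns are the 2 arrays of each sorted group. CD34-Flt3- replicate 1 was the highest array for 19 of the 34 genes, and CD34+Flt3- replicate 2 was the lowest for 15.

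Among the receptors, the interferon-gamma receptor gene Ifngr2 was the one called member that was higher in the CD34+ cells. Ifngr2, which encodes the signalling chain of that receptor, read 7.50 and 7.19 in CD34+Flt3hi, 6.59 and 7.18 in CD34+Flt3- and 4.36 and 5.21 in CD34-Flt3- cells. The CD34-Flt3- arrays were the lowest pair, one of them below background, and did not overlap with any other array. The difference was 2.56 ± 0.35 (SE, 5.91-fold, or 5.63-fold with the array below background set to it, adjusted p = 0.00277) for CD34+Flt3hi minus CD34-Flt3- cells and 2.10 ± 0.35 (4.28-fold, or 4.08-fold, adjusted p = 0.0212) for CD34+Flt3- minus CD34-Flt3- cells, each by limma on 2 arrays per group. Within code A, with 1 array per group, these differences were 1.98 and 1.97. CD34+Flt3hi minus CD34+Flt3- cells gave 0.47 (adjusted p = 0.923). A dimmer probe set of Ifngr2 did not show the difference. It read 5.48 and 5.24 in CD34+Flt3hi, 5.11 and 5.09 in CD34+Flt3- and 4.89 and 5.76 in CD34-Flt3- cells, and with the mean of all its probe sets the CD34+Flt3- minus CD34-Flt3- difference was 0.94 (adjusted p = 0.178). That call was also lost without either CD34+Flt3hi array, where the difference stayed at 2.10. It was lost too without CD34+Flt3- replicate 1 (difference 2.39) or 2 (1.80). Each of these fits leaves 1 array in a group and called fewer of all genes than the full fit.

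Ifnar2, the chain of the type I receptor to which Stat2 binds, was level in the Flt3- groups and had its 2 highest readings in the Flt3hi group. It read 9.22 and 9.20 in CD34+Flt3hi, 8.13 and 8.63 in CD34+Flt3- and 8.49 and 8.05 in CD34-Flt3- cells. The CD34+Flt3hi arrays lay above the other 4, which overlapped among themselves. Neither difference passed the test: 0.83 ± 0.27 against CD34+Flt3- cells (adjusted p = 0.426; 0.57 within code A and 1.09 within code B) and 0.94 ± 0.27 against CD34-Flt3- cells (adjusted p = 0.0812). Its other probe sets gave 1.04 to 1.59 for CD34+Flt3hi minus CD34+Flt3- cells and 1.12 to 1.45 for CD34+Flt3hi minus CD34-Flt3- cells. The one with readings closest in brightness had 8.93 and 8.95 in CD34+Flt3hi, 7.91 and 7.90 in CD34+Flt3- and 7.79 and 7.85 in CD34-Flt3- cells, so all 3 probe sets placed CD34+Flt3hi cells highest. With their mean, CD34+Flt3hi minus CD34-Flt3- cells gave 1.17 (adjusted p = 0.0202).

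The partner chains differed less. Ifnar1, the other chain of the type I receptor, read 7.50 and 7.64 in CD34+Flt3hi, 7.37 and 7.20 in CD34+Flt3- and 8.03 and 7.86 in CD34-Flt3- cells, so its highest pair was CD34-Flt3-, without overlap. The differences from CD34-Flt3- cells were -0.38 in CD34+Flt3hi cells (adjusted p = 0.498) and -0.66 ± 0.25 in CD34+Flt3- cells (adjusted p = 0.227). Ifngr1, the ligand-binding chain of the interferon-gamma receptor, read 8.10 and 7.93 in CD34+Flt3hi, 8.01 and 7.72 in CD34+Flt3- and 8.40 and 8.04 in CD34-Flt3- cells. Its CD34+Flt3hi and CD34-Flt3- arrays overlapped, and no comparison of Ifngr1 passed (lowest adjusted p = 0.542). By their brightest probe sets the 2 chains of each receptor thus did not share an order of group means, though no difference of Ifnar1 or Ifngr1 passed. A dimmer probe set of Ifnar1 gave 0.35 for CD34+Flt3- minus CD34-Flt3- cells, opposite in sign to the one used. For CD34+Flt3hi minus CD34+Flt3- cells it gave -0.39, where the one used gave 0.28.

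**Figure D2:**
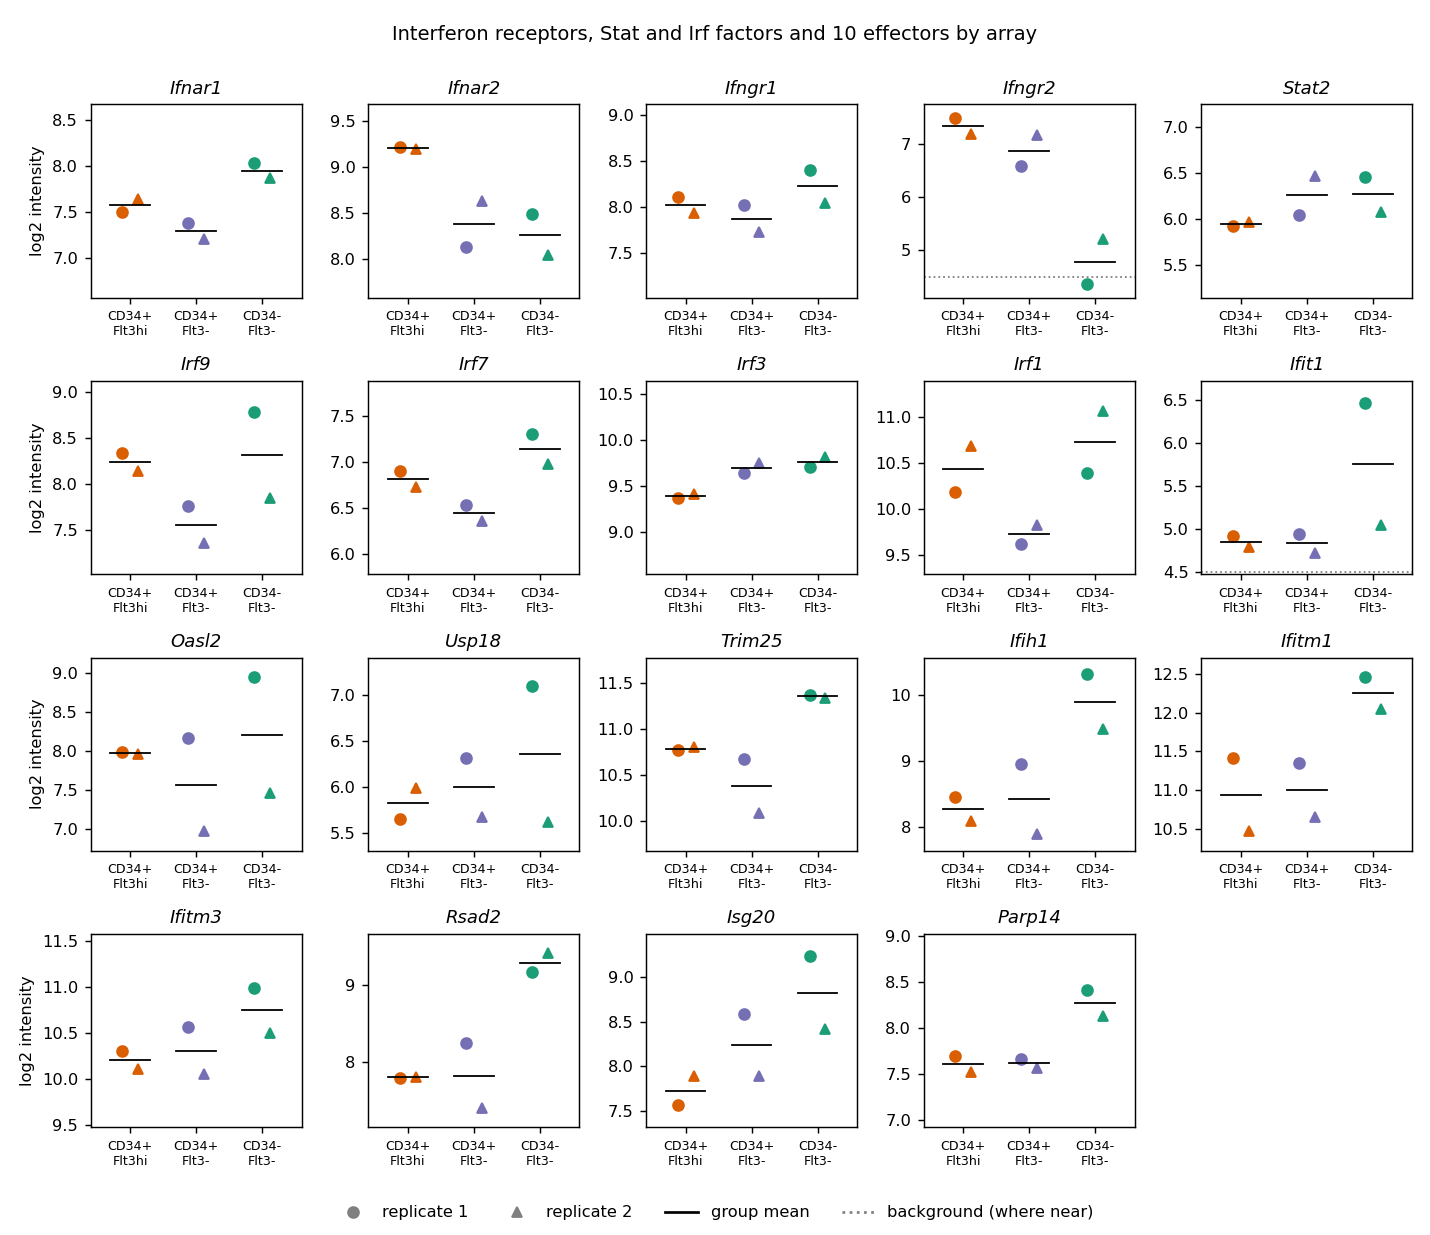
Log2 intensity on each array of the 4 receptor genes, the 5 Stat and Irf factors and 10 effectors in CD34+Flt3hi, CD34+Flt3- and CD34-Flt3- cells. Circles are replicate 1, triangles replicate 2, lines group means, and the dotted line is the background of 4.50 where it falls in the panel. Each panel has its own axis. Ifngr2 is lowest and Rsad2, Ifih1 and Ifitm1 are highest on the CD34-Flt3- arrays.

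By their brightest probe sets, all 5 Stat and Irf factors had their highest mean in CD34-Flt3- cells (100%, against 47.9% of all genes). None passed the test in any comparison. For Stat2 and Irf3 the CD34+Flt3- minus CD34-Flt3- difference was only -0.01 and -0.06, and not all of their other probe sets kept this order. Their median difference was -0.32 for CD34+Flt3hi minus CD34-Flt3- cells and -0.70 for CD34+Flt3- minus CD34-Flt3- cells. For 3 of the 5, Irf9, Irf7 and Irf1, the lowest mean was in CD34+Flt3- cells and the CD34+Flt3hi mean lay between, while for Stat2 and Irf3 the CD34+Flt3hi mean was the lowest.

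Irf1, a factor induced by interferon-gamma that also maintains basal expression of antigen-presentation genes, read 10.19 and 10.69 in CD34+Flt3hi, 9.63 and 9.84 in CD34+Flt3- and 10.40 and 11.06 in CD34-Flt3- cells. The CD34+Flt3- arrays were the lowest pair, and the CD34+Flt3hi and CD34-Flt3- arrays overlapped. In CD34+Flt3- cells Irf1 was 2.00-fold lower than in CD34-Flt3- cells (SE of 0.27 in log2, adjusted p = 0.0943), and CD34+Flt3hi minus CD34+Flt3- cells gave 0.71 ± 0.27 (adjusted p = 0.595; 0.85 within code A and 0.56 within code B). Without CD34-Flt3- replicate 1 the CD34+Flt3- minus CD34-Flt3- difference of Irf1 was -1.33 with an adjusted p of 0.0134.

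Irf9, the DNA-binding subunit of the complex it forms with Stat2, read 8.34 and 8.14 in CD34+Flt3hi, 7.76 and 7.36 in CD34+Flt3- and 8.78 and 7.85 in CD34-Flt3- cells. The 2 CD34-Flt3- arrays of Irf9 lay 0.93 apart, on either side of both CD34+Flt3hi arrays. CD34+Flt3- minus CD34-Flt3- cells gave -0.75 ± 0.33 (adjusted p = 0.29), and without CD34-Flt3- replicate 2 it gave -1.22 (adjusted p = 0.0381). Irf7, which drives the amplification of type I interferon production, read 6.90 and 6.73 in CD34+Flt3hi, 6.53 and 6.35 in CD34+Flt3- and 7.30 and 6.98 in CD34-Flt3- cells. The 3 groups of Irf7 did not overlap, yet the differences from CD34-Flt3- cells were small, -0.33 in CD34+Flt3hi cells (adjusted p = 0.601) and -0.70 ± 0.27 in CD34+Flt3- cells (adjusted p = 0.228).

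Irf3 and Stat2 varied least among the factors. Irf3, the latent factor activated when foreign nucleic acid is sensed, read 9.37 and 9.41 in CD34+Flt3hi, 9.65 and 9.75 in CD34+Flt3- and 9.70 and 9.81 in CD34-Flt3- cells. The CD34+Flt3hi pair was lowest without overlap, by -0.37 against CD34-Flt3- cells (adjusted p = 0.401) and -0.31 against CD34+Flt3- cells (adjusted p = 0.909). The other 3 probe sets of Irf3 gave -0.40 to 0.45 and -0.48 to -0.03 for these, and -0.24 to 0.93 for CD34+Flt3- minus CD34-Flt3- cells. The brightest of them read 8.01 and 8.02 in CD34+Flt3hi and 8.14 and 7.96 in CD34+Flt3- cells, which overlapped. Stat2, a subunit of the same complex as Irf9, read 5.92 and 5.97 in CD34+Flt3hi, 6.05 and 6.47 in CD34+Flt3- and 6.46 and 6.08 in CD34-Flt3- cells. The Flt3- groups of Stat2 overlapped fully, with a difference of -0.01 (adjusted p = 0.991), and its dimmer probe set gave 0.02.

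Of the 25 effectors measured, 3 fell in CD34+Flt3hi cells relative to CD34-Flt3- cells, none rose, and the other 22 did not pass. Rsad2, Ifih1 and Ifitm1 were the 3 (12%, against 6.11% of all genes). In CD34+Flt3- cells relative to CD34-Flt3- cells Rsad2 fell (1 of 25, 4%, against 2.1% of all genes), while Ifih1, Ifitm1 and Trim25 were also lower without overlap but did not pass. The median difference over the effectors was -0.25 for CD34+Flt3hi minus CD34-Flt3- cells, -0.26 for CD34+Flt3- minus CD34-Flt3- cells and 0.05 for CD34+Flt3hi minus CD34+Flt3- cells, where all genes had medians of -0.07, -0.10 and 0.03.

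Rsad2 encodes viperin, a radical-SAM enzyme that makes a chain-terminating nucleotide active against viral RNA synthesis. It read 7.79 and 7.80 in CD34+Flt3hi, 8.24 and 7.39 in CD34+Flt3- and 9.17 and 9.41 in CD34-Flt3- cells. The CD34-Flt3- arrays were the highest pair and overlapped with no other, and the CD34+Flt3- arrays lay on either side of the CD34+Flt3hi arrays. The difference was -1.50 ± 0.31 for CD34+Flt3hi minus CD34-Flt3- cells (2.82-fold lower, adjusted p = 0.0187; -1.61 within code A) and -1.48 ± 0.31 for CD34+Flt3- minus CD34-Flt3- cells (2.78-fold lower, adjusted p = 0.0426; -2.02 within code A).

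The other probe sets of Rsad2 gave smaller differences of the same sign, -0.59 to -0.46 for CD34+Flt3hi minus CD34-Flt3- cells and -0.71 to -0.27 for CD34+Flt3- minus CD34-Flt3- cells. One of them read 4.70 and 4.72 in CD34+Flt3hi, 4.70 and 4.47 in CD34+Flt3- and 5.92 and 4.68 in CD34-Flt3- cells, so that only CD34-Flt3- replicate 1 stood above the rest. Averaged over its 3 probe sets, the Rsad2 difference from CD34-Flt3- cells was -0.85 in CD34+Flt3hi cells (adjusted p = 0.139) and -0.82 in CD34+Flt3- cells (adjusted p = 0.199). The CD34+Flt3hi call was lost without CD34+Flt3hi replicate 1 (difference -1.49) or 2 (-1.50). The CD34+Flt3- call was lost without either CD34+Flt3hi array, where the difference stayed at -1.48. It was also lost without CD34+Flt3- replicate 1 (-1.90) or 2 (-1.05). Each of these fits leaves 1 array in a group and called fewer of all genes than the full fit.

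Ifih1 encodes a cytosolic sensor of long double-stranded RNA. It read 8.45 and 8.09 in CD34+Flt3hi, 8.96 and 7.90 in CD34+Flt3- and 10.31 and 9.48 in CD34-Flt3- cells. Both CD34-Flt3- arrays lay above the other 4. Ifih1 fell by 1.62 ± 0.38 in CD34+Flt3hi cells (3.08-fold, adjusted p = 0.0348), with -1.39 within code A. CD34+Flt3- minus CD34-Flt3- cells gave -1.47 ± 0.38 (adjusted p = 0.088). Neither the fit without the intensity trend (adjusted p = 0.0513) nor the mean of all probe sets (0.0532) kept the CD34+Flt3hi call. Ifih1 itself has 1 probe set, so averaging left its difference at -1.62 and only its adjusted p moved. The CD34+Flt3hi call was lost without CD34+Flt3hi replicate 1 (difference -1.80) or 2 (-1.44), where fewer of all genes were called as well. It was also lost without CD34-Flt3- replicate 1 (-1.21), where more of all genes were called.

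Ifitm1 encodes a membrane protein that restricts virus entry. It read 11.42 and 10.47 in CD34+Flt3hi, 11.36 and 10.66 in CD34+Flt3- and 12.46 and 12.05 in CD34-Flt3- cells. The CD34-Flt3- arrays were again the highest pair without overlap, and the CD34+Flt3- arrays lay between the CD34+Flt3hi arrays. Ifitm1 fell by 1.31 ± 0.32 in CD34+Flt3hi cells (2.47-fold, adjusted p = 0.0409), with -1.58 within code A. CD34+Flt3- minus CD34-Flt3- cells gave -1.24 ± 0.32 (adjusted p = 0.0857). Neither the fit without the intensity trend (adjusted p = 0.0831) nor the mean of all probe sets (0.0703) kept the CD34+Flt3hi call. Ifitm1 too has 1 probe set, so averaging left its difference at -1.31 and only its adjusted p moved. The call was lost without CD34+Flt3hi replicate 2 (difference -0.83) and without either CD34+Flt3- array, where the difference stayed at -1.31. In these fits fewer of all genes were called as well. It was also lost without CD34-Flt3- replicate 1 (-1.10), where more of all genes were called. Its neighbour in function Ifitm3 read 10.30 and 10.11 in CD34+Flt3hi, 10.56 and 10.06 in CD34+Flt3- and 10.99 and 10.50 in CD34-Flt3- cells. The difference of Ifitm3 was -0.54 for CD34+Flt3hi minus CD34-Flt3- cells (adjusted p = 0.278).

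Trim25, Parp14 and Isg20 had the same order of groups against CD34-Flt3- cells without passing. Trim25, a ubiquitin ligase that acts on RNA sensing, read 10.76 and 10.80 in CD34+Flt3hi, 10.67 and 10.08 in CD34+Flt3- and 11.36 and 11.34 in CD34-Flt3- cells, with no overlap between groups. CD34+Flt3- minus CD34-Flt3- cells gave -0.98 ± 0.22 for Trim25 (adjusted p = 0.0526), just outside the threshold and called under 7 of the 15 alternatives, and CD34+Flt3hi minus CD34-Flt3- cells gave -0.57 (adjusted p = 0.19). Parp14, an ADP-ribosyltransferase, read 7.69 and 7.53 in CD34+Flt3hi, 7.67 and 7.57 in CD34+Flt3- and 8.42 and 8.13 in CD34-Flt3- cells. The CD34+ groups of Parp14 overlapped, and each differed from CD34-Flt3- cells by -0.66 (adjusted p = 0.195 in CD34+Flt3hi and 0.229 in CD34+Flt3- cells). Isg20, an exonuclease acting on RNA, read 7.56 and 7.89 in CD34+Flt3hi, 8.59 and 7.89 in CD34+Flt3- and 9.23 and 8.42 in CD34-Flt3- cells, with differences of -1.10 for CD34+Flt3hi minus CD34-Flt3- cells (adjusted p = 0.106) and -0.59 ± 0.35 for CD34+Flt3- minus CD34-Flt3- cells (adjusted p = 0.424).

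**Figure D3:**
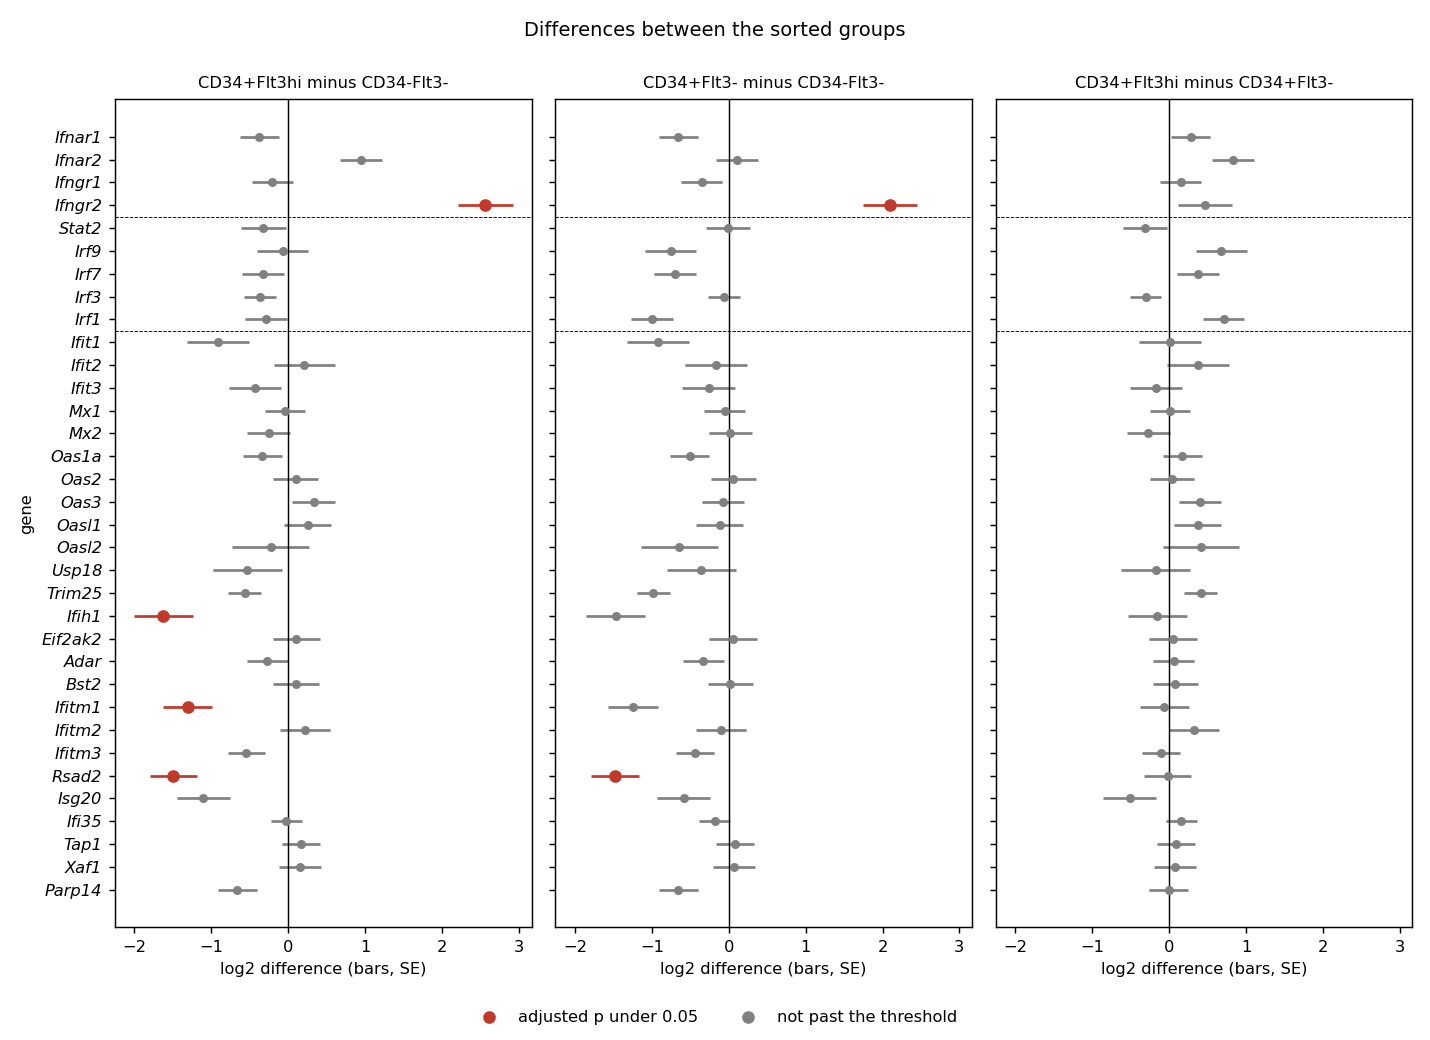
Log2 difference of group means for each of the 34 measured genes in the 3 comparisons, the group named first minus the other. Bars are the standard error of the limma fit, red points have an adjusted p under 0.05, and dashed lines part receptors, Stat and Irf factors and effectors. Red points are Ifngr2, at 2.56 and 2.10, and Rsad2, Ifih1 and Ifitm1 below 0, and the comparison of the CD34+ groups has none.

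In Ifit1, Oasl2 and Usp18 a single array, CD34-Flt3- replicate 1, stood above the other 5. Ifit1, which binds viral RNA whose cap lacks a host methyl mark, read 4.92 and 4.79 in CD34+Flt3hi, 4.95 and 4.73 in CD34+Flt3- and 6.47 and 5.05 in CD34-Flt3- cells. The other 5 arrays of Ifit1 were near the background of 4.50, at 4.73 to 5.05. CD34+Flt3hi minus CD34-Flt3- cells gave -0.91 ± 0.40 for Ifit1 (adjusted p = 0.266), and -1.62 (adjusted p = 0.0053) when CD34-Flt3- replicate 2 was left out.

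Oasl2, a relative of the oligoadenylate synthetases, read 7.99 and 7.96 in CD34+Flt3hi, 8.17 and 6.96 in CD34+Flt3- and 8.95 and 7.46 in CD34-Flt3- cells. Here both Flt3- groups were spread widely, with an SD of 0.85 in CD34+Flt3- and 1.06 in CD34-Flt3- cells against 0.02 in CD34+Flt3hi cells. Usp18, which removes Isg15 from proteins and dampens signalling at Ifnar2, read 5.65 and 5.99 in CD34+Flt3hi, 6.32 and 5.68 in CD34+Flt3- and 7.09 and 5.62 in CD34-Flt3- cells. CD34-Flt3- replicate 2 was the lowest of the 6 arrays for Usp18 and replicate 1 the highest. No comparison of Oasl2 or Usp18 passed.

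The other 15 effectors, among them Ifit2, Ifit3, Mx1, Mx2, Oas1a, Oas2, Oas3, Oasl1, Eif2ak2, Adar, Bst2 and Tap1, read 4.11 to 10.03 on any array. Their differences ran from -0.51 to 0.40 over the 3 comparisons, with standard errors of 0.20 to 0.40 and no adjusted p below 0.35. The antiviral GTPase Mx1 was at background, with 4.83 and 4.11 in CD34+Flt3hi, 4.45 and 4.47 in CD34+Flt3- and 4.53 and 4.50 in CD34-Flt3- cells. The oligoadenylate synthetase Oas1a, whose promoter letters are shown above, read 8.61 and 8.38 in CD34+Flt3hi, 8.55 and 8.10 in CD34+Flt3- and 8.83 and 8.83 in CD34-Flt3- cells. The means of Oas1a thus differed by at most 0.51, and its arrays overlapped between the CD34+ groups.

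The effectors also differed between the 2 arrays of one group, and in the Flt3- groups mostly in one direction. In CD34-Flt3- cells 23 of 25 effectors were higher on replicate 1 than on replicate 2, with a median difference of 0.41, while 50.7% of all genes were higher there with a median of 0.01. In CD34+Flt3- cells replicate 1 was higher for 20 of 25, with a median of 0.45 against 0.09 over all genes, of which 59.5% were higher. In CD34+Flt3hi cells it was higher for 16 of 25, with a median of 0.16 against 0.02 over all genes.

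Named members show the size of this spread. In CD34-Flt3- cells replicate 1 exceeded replicate 2 by 1.50 for Oasl2 (2.83-fold), 1.47 for Usp18 (2.78-fold), 1.42 for Ifit1 (2.68-fold) and 1.24 for Ifit2 (2.37-fold). These 4 of 25 effectors (16%) were over 2-fold higher on replicate 1, against 5.24% of all genes. There 0 effectors were over 2-fold lower, against 2.19% of all genes. In CD34+Flt3- cells 3 of 25 (12%) were over 2-fold higher on replicate 1, against 2.02% of all genes. These were Oasl2 by 1.20, Ifih1 by 1.06 and Ifitm2 by 1.01, and 0 were over 2-fold lower, against 0.60% of all genes. In CD34+Flt3hi cells no effector differed over 2-fold, the largest difference being 0.95 for Ifitm1. Between groups, the median absolute difference of the effectors was 0.27 for CD34+Flt3hi against CD34-Flt3- cells. It was 0.26 for CD34+Flt3- against CD34-Flt3- cells and 0.15 for CD34+Flt3hi against CD34+Flt3- cells. These are unsigned differences of means of 2 arrays, so they are not the same measure as the signed medians between single arrays. CD34-Flt3- replicate 1 was the highest of the 6 arrays for 15 effectors (60%, against 27.3% of all genes), and CD34+Flt3- replicate 2 was the lowest for 11 (44%, against 25.6%).

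**Figure D4:**
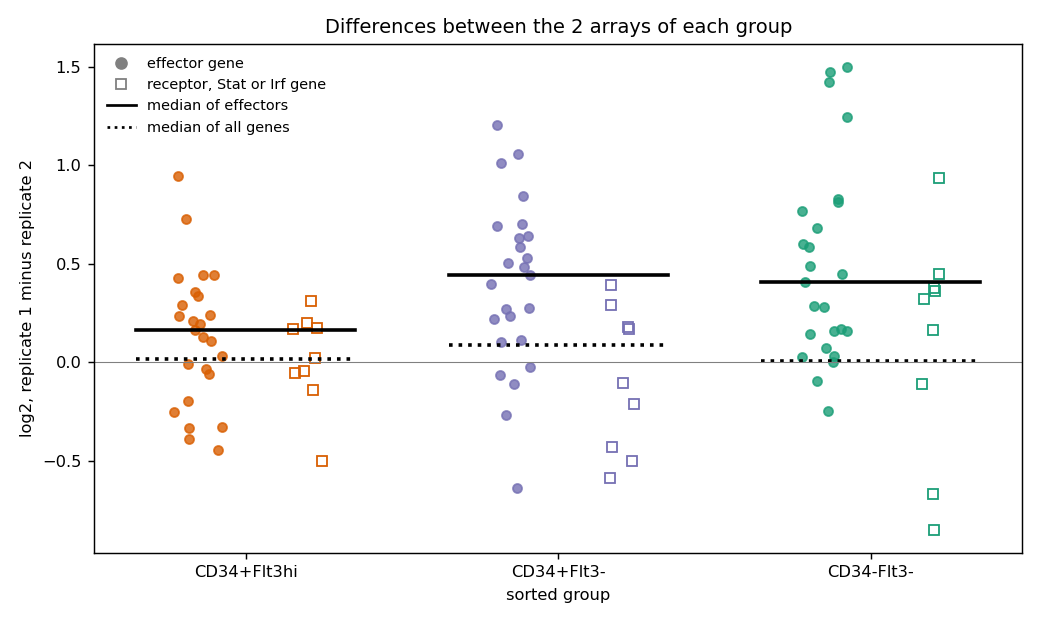
Replicate 1 minus replicate 2 in log2 for each measured gene of the list within each sorted group. Filled circles are effectors, open squares receptors and Stat and Irf factors, solid lines the median of the effectors and dotted lines the median of all genes. The effector medians are 0.16 in CD34+Flt3hi, 0.45 in CD34+Flt3- and 0.41 in CD34-Flt3- cells, with 4 genes over 1 in the last group.

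The ISRE pattern did not separate these genes cleanly. Of the 11 measured members with a match, 10 were higher on CD34-Flt3- replicate 1 than on replicate 2, with a median of 0.49, and of the 18 measured members with a window and no match 14 were higher, with a median of 0.25. Oasl2 is without a match and had the largest difference, and Stat2 and Ifit1 have a match with differences of 0.38 and 1.42. Between groups the medians of the genes with a match were -0.34 for CD34+Flt3hi minus CD34-Flt3- cells and -0.26 for CD34+Flt3- minus CD34-Flt3- cells, and those of the genes without one were -0.22 and -0.34.

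The members called against CD34-Flt3- cells depended on which of its arrays was left out, and the share of all genes called rose in each of these fits. Without CD34-Flt3- replicate 2, 6 members were called for CD34+Flt3hi against CD34-Flt3- cells, namely Ifngr2, Ifit1, Ifih1, Ifitm1, Rsad2 and Isg20 (17.6%, against 7.6% of all genes). For CD34+Flt3- against CD34-Flt3- cells 7 were called, namely Ifngr2, Irf9, Ifit1, Trim25, Ifih1, Ifitm1 and Rsad2 (20.6%, against 5.4%). Without CD34-Flt3- replicate 1, Ifnar2, Ifngr2 and Rsad2 were called in the first of these comparisons (8.82%, against 10.5% of all genes) and Ifngr2, Irf1, Trim25 and Rsad2 in the other (11.8%, against 4.9%). In these fits the lone CD34-Flt3- array is assumed to vary like the other groups. Within code A, which leaves out replicate 1 of every group, the share of lower members was close to that of all genes. There 22 of 34 members were lower in CD34+Flt3- than in CD34-Flt3- cells (64.7%, against 61.9% of all genes), with a median of -0.26 (all genes -0.14). In CD34+Flt3hi cells 20 were lower (58.8%, against 57.4%), with a median of -0.11 (all genes -0.09). Over the 25 effectors alone the code A median for CD34+Flt3hi minus CD34-Flt3- cells was 0.00.

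Beyond the listed members, 90 of 102 further genes of the pathway were measured, while the other 12 were not analysed here. Of the 90, 10 were called between CD34+Flt3hi and CD34-Flt3- cells (5 higher and 5 lower in CD34+Flt3hi cells, 11.1% of the list, against 6.11% of all genes), 4 between CD34+Flt3- and CD34-Flt3- cells (1 higher and 3 lower, 4.44%, against 2.1%) and 2 between CD34+Flt3hi and CD34+Flt3- cells (both higher, 2.22%, against 0.61%). Their median differences were -0.17, -0.33 and 0.13, against -0.07, -0.10 and 0.03 over all genes.

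The ligand genes were near background, with 1 of 5 measured, Ifnb1, above it on average. Ifnb1, encoding interferon-beta and named here after its values were seen, read 5.17 and 4.60 in CD34+Flt3hi, 4.93 and 4.60 in CD34+Flt3- and 4.26 and 5.09 in CD34-Flt3- cells, so all groups overlapped. Ifng, encoding interferon-gamma, read 3.50 to 4.34 over the 6 arrays, all below background. No ligand gene passed in any comparison.

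The interferon-gamma-inducible GTPases, which act on the vacuoles of intracellular pathogens, had the largest median shift from CD34-Flt3- cells among the pathway lists. All 9 measured of 13 had a lower mean in CD34+Flt3- than in CD34-Flt3- cells, with a median of -0.95 (all genes 61.0% lower, median -0.10). In CD34+Flt3hi cells 8 of 9 were lower than in CD34-Flt3- cells, with a median of -1.02 (all genes 57.7% lower, median -0.07). Each of the 9 was highest on CD34-Flt3- replicate 1 and lower on replicate 2 of that group. Of the 9, Gbp6 and Iigp1 fell in both comparisons. Within code A all 9 were lower in CD34+Flt3- cells (median -0.90), where 61.9% of all genes were lower (median -0.14). In CD34+Flt3hi cells 7 were lower within code A (median -0.62), where 57.4% of all genes were lower (median -0.09).

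Gbp6, a guanylate-binding protein gene, read 4.81 and 4.30 in CD34+Flt3hi, 4.66 and 4.59 in CD34+Flt3- and 7.75 and 6.61 in CD34-Flt3- cells. It was near background in both CD34+ groups and clearly above it in CD34-Flt3- cells, without overlap. Gbp6 fell by 2.62 ± 0.37 in CD34+Flt3hi cells (6.17-fold, or 5.75-fold with the 1 array below background set to it, adjusted p = 0.0033) and fell by 2.55 ± 0.37 in CD34+Flt3- cells (5.87-fold, adjusted p = 0.0171), and its other probe set gave -2.42 and -2.76. Of these calls only the first was kept when each array was left out in turn, and the highest adjusted p of the other was 0.22.

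Iigp1, an immunity-related GTPase, read 7.58 and 7.63 in CD34+Flt3hi, 7.92 and 7.14 in CD34+Flt3- and 10.24 and 8.92 in CD34-Flt3- cells. The CD34-Flt3- arrays were highest without overlap, with an SD of 0.94 between them. Iigp1 fell by 1.98 ± 0.42 in CD34+Flt3hi cells (3.94-fold, adjusted p = 0.0215) and fell by 2.05 ± 0.42 in CD34+Flt3- cells (4.14-fold, adjusted p = 0.0413), with adjusted p of up to 0.161 and 0.398 when 1 array was left out. Irgm2 and Igtp, which belong to the same family, differed by -1.34 and -1.02 in CD34+Flt3hi cells (adjusted p = 0.189 and 0.108) and by -1.59 and -1.30 in CD34+Flt3- cells (adjusted p = 0.15 and 0.0763).

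Factors and sensors moved in both directions. Irf8, a factor of monocyte and dendritic cell development, read 10.11 and 9.57 in CD34+Flt3hi, 5.86 and 6.84 in CD34+Flt3- and 5.79 and 6.17 in CD34-Flt3- cells. The CD34+Flt3hi arrays stood far above the other 4. Irf8 rose by 3.87 ± 0.37 in CD34+Flt3hi relative to CD34-Flt3- cells (14.6-fold, adjusted p = 0.00049; 2.28 by its other probe set), and that call was kept when each array was left out in turn. Against CD34+Flt3- cells the gain was 2.73 within code A and 4.26 within code B.

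Tlr7, an endosomal receptor for single-stranded RNA, read 6.29 and 6.18 in CD34+Flt3hi, 4.67 and 4.20 in CD34+Flt3- and 4.56 and 4.01 in CD34-Flt3- cells. It was above background in CD34+Flt3hi cells and around it in the others, where the mean gives only a bound. In CD34+Flt3hi cells Tlr7 was at least 3.27-fold higher relative to CD34-Flt3- cells (adjusted p = 0.00355) and at least 3.15-fold higher relative to CD34+Flt3- cells (adjusted p = 0.0231), while its other probe sets gave log2 differences of 0.24 to 0.58. The call against CD34+Flt3- cells was lost for 4 of the 6 arrays left out.

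Cgas, the cytosolic DNA sensor, read 9.09 and 9.15 in CD34+Flt3hi, 8.70 and 8.80 in CD34+Flt3- and 7.51 and 7.51 in CD34-Flt3- cells. The groups did not overlap, and Cgas rose in CD34+Flt3hi (1.61 ± 0.23, adjusted p = 0.00355) and CD34+Flt3- cells (1.24 ± 0.23, adjusted p = 0.0314) relative to CD34-Flt3- cells. Sting1, the adaptor that Cgas signals through, read 9.78 and 9.94 in CD34+Flt3hi, 8.18 and 8.82 in CD34+Flt3- and 8.60 and 9.18 in CD34-Flt3- cells, with a difference of 0.97 from CD34-Flt3- cells in CD34+Flt3hi cells (adjusted p = 0.0944). Ikbke, a kinase that activates Irf3, read 6.53 and 6.40 in CD34+Flt3hi, 6.99 and 6.28 in CD34+Flt3- and 7.78 and 7.58 in CD34-Flt3- cells. It fell by 1.21 ± 0.31 in CD34+Flt3hi relative to CD34-Flt3- cells (adjusted p = 0.0461). Dhx58, a relative of Ifih1, was lowest in CD34+Flt3- cells, by -1.13 against CD34-Flt3- cells (adjusted p = 0.0801).

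Among the remaining induced genes and inhibitors, Ifi27l2a and Irf2bp2 rose and Uba7 and Pml fell in CD34+Flt3hi relative to CD34-Flt3- cells, and Trim34a fell in CD34+Flt3- cells. Ifi27l2a, an interferon-inducible gene, read 7.75 and 7.65 in CD34+Flt3hi, 6.34 and 6.67 in CD34+Flt3- and 5.04 and 5.74 in CD34-Flt3- cells. The CD34-Flt3- arrays were the lowest pair and the CD34+Flt3hi arrays the highest, without overlap, and Ifi27l2a rose by 2.31 ± 0.31 in CD34+Flt3hi relative to CD34-Flt3- cells (4.96-fold, adjusted p = 0.00247). Uba7, the enzyme that activates Isg15 for conjugation, read 8.91 and 8.79 in CD34+Flt3hi, 9.77 and 8.92 in CD34+Flt3- and 10.36 and 10.13 in CD34-Flt3- cells, and fell by 1.39 ± 0.29 in CD34+Flt3hi cells (adjusted p = 0.0196). Pml, which forms nuclear bodies, fell by 1.02 ± 0.25 in CD34+Flt3hi relative to CD34-Flt3- cells (adjusted p = 0.0433), and the inhibitor gene Irf2bp2 rose by 1.28 ± 0.23 (adjusted p = 0.011). The other 3 probe sets of Irf2bp2 gave 0.08 to 0.69, and the other 2 of Pml -1.02 to -0.26. Trim34a fell by 1.30 ± 0.28 in CD34+Flt3- relative to CD34-Flt3- cells (adjusted p = 0.0486), and its other probe set gave -0.30. Of the 16 calls among the pathway genes, 4 were kept when each array was left out in turn, those of Irf8, Tlr7, Gbp6 and Ifi27l2a between CD34+Flt3hi and CD34-Flt3- cells.

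**Figure D5:**
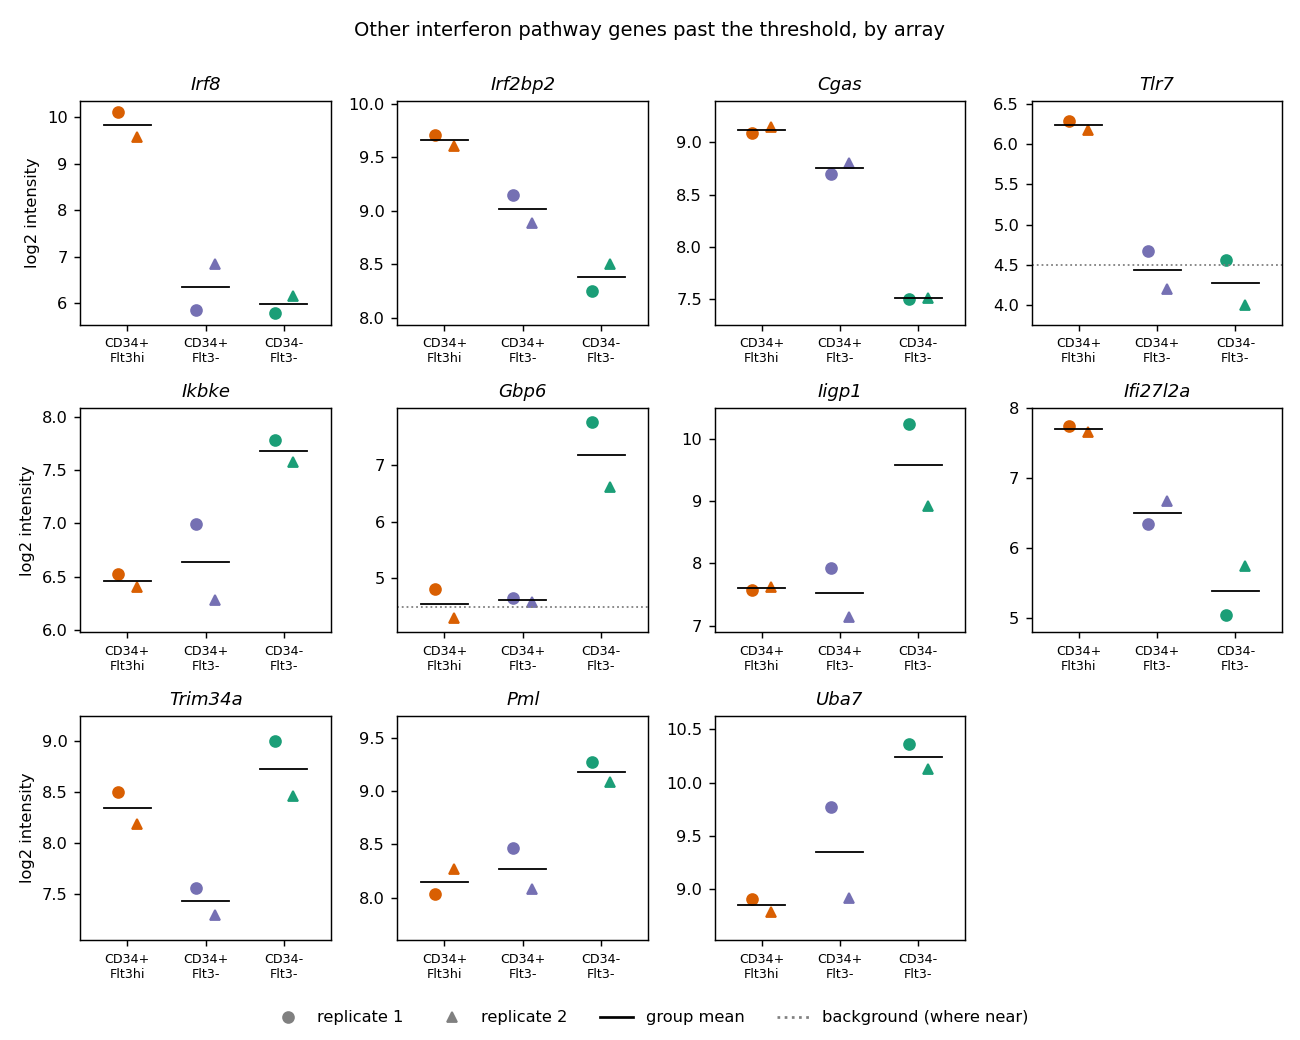
Log2 intensity on each array of the 11 further pathway genes called in at least 1 comparison, in CD34+Flt3hi, CD34+Flt3- and CD34-Flt3- cells. Circles are replicate 1, triangles replicate 2, lines group means, and the dotted line is the background of 4.50 where it falls in the panel. Irf8, Irf2bp2, Cgas, Tlr7 and Ifi27l2a are highest in CD34+Flt3hi cells and the other 6 are highest in CD34-Flt3- cells.

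Several of these genes are also expressed by mature blood cells, so markers of other cell types were summed in linear intensity beside them. Dendritic cell markers (9 of 11 measured) include the sort antigen gene Flt3, which made up most of their sum of 4476 and 3845 in CD34+Flt3hi, 744 and 1157 in CD34+Flt3- and 503 and 900 in CD34-Flt3- cells. Without Flt3, which was left out after its values were seen, the other 8 summed to 340 and 408 in CD34+Flt3hi, 285 and 260 in CD34+Flt3- and 302 and 328 in CD34-Flt3- cells, so the CD34+Flt3hi arrays were highest by a small margin. Of these markers, Siglech read 4.89 to 5.86 on the 6 arrays and Xcr1 3.59 to 4.29, below background. By contrast, Ccr9 read 4.69 and 6.79 in CD34+Flt3hi, 3.45 and 3.53 in CD34+Flt3- and 3.70 and 3.49 in CD34-Flt3- cells. Itgax read 5.47 and 5.81, 4.45 and 4.45, and 4.58 and 4.99 in the same groups. For CD34+Flt3hi against CD34-Flt3- cells, 7 of the 9 dendritic markers, Flt3 included, had the higher mean and 2 the lower. Of the 9, limma called 2 higher and 0 lower. The monocyte receptor gene Csf1r also rose in CD34+Flt3hi cells, by 3.16 ± 0.36 against CD34-Flt3- cells (adjusted p = 0.00117). Of the neutrophil and monocyte markers (10 of 12 measured), 6 had the higher mean in this comparison and 4 the lower, and limma called only Csf1r. Their sum was 1402 to 1724 in CD34+Flt3hi, 1410 to 1450 in CD34+Flt3- and 1319 to 1406 in CD34-Flt3- cells. S100a8 read 4.02 to 4.36, below background. Lyz2, the brightest of them on average, went the other way from Csf1r. It read 9.34 and 9.23 in CD34+Flt3hi, 9.95 and 9.84 in CD34+Flt3- and 10.00 and 9.99 in CD34-Flt3- cells. B lineage markers (7 of 8) summed to 329 and 330, 298 and 332, and 439 and 412 in the same groups, and T and NK markers (7 of 9) to 259 and 264, 291 and 372, and 230 and 297. Erythroid markers (3 of 6) had means below background. Endothelial and stromal markers (7 of 7) summed to 427 to 530 in CD34+Flt3hi, 358 to 418 in CD34+Flt3- and 400 to 454 in CD34-Flt3- cells. The 2 called members of that list went opposite ways: in CD34+Flt3hi relative to CD34-Flt3- cells Kdr fell by 1.79 (adjusted p = 0.00732) and Pdgfrb rose by 2.17 (adjusted p = 0.00246). Emcn differed by -0.88 (adjusted p = 0.166). The B lineage sum was thus highest in CD34-Flt3- cells, where most of the interferon genes had their highest mean. Of its 7 genes, however, 4 had a mean above background and none was called in any comparison. The brightest, Cd79b, read 7.60 and 7.61 in CD34-Flt3- cells and 6.99 to 7.22 in the CD34+ groups. The endothelial and stromal sum overlapped between CD34+Flt3hi and CD34-Flt3- cells. It includes the bright Pdgfrb, which read 8.36 and 8.03 in CD34+Flt3hi and 5.87 and 6.19 in CD34-Flt3- cells. By count, 6 of the 7 markers had the lower mean in CD34+Flt3hi cells and 1 the higher (85.7% lower, against 57.7% of all genes). The part of these 2 lists in the result, and that of the dendritic and monocyte genes, was not tested.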

How the data were processed

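RNA from 6 sorted samples, 2 arrays for each of 3 groups, was measured on 1-colour Affymetrix arrays after 2 rounds of amplification, per the labels' protocols. The authors deposited RMA values, per the submitters' processing notes, without a version or a statement of which arrays were processed together. The deposited intensities run from 6.50 to 24173 and were taken as linear, and their log2 was used. Of 45101 probe sets, 64 were controls, 34945 carried 1 gene symbol, 932 several (left out) and 9160 none (unnamed here). Symbols were updated through gene identifiers, 99.1% of which matched RefSeq. Each gene was read from its brightest probe set. Background was the 90th percentile of 27 unspiked bacterial control probe sets, and 26.7% of genes had a mean below it.

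In R 4.3.3, limma 3.58.1 fitted 1 mean per group to the 6 arrays (empirical Bayes, intensity trend, no block), with 3 residual and 6.86 prior degrees of freedom. Two-sided p-values had Benjamini-Hochberg adjustment over 18193 genes, with a threshold of 0.05. The limma fit was tested on simulated data. "At least" folds set values below background to it. With 2 arrays per group an exact permutation test has no p below the threshold, so none is given. Members, pathway lists, markers and tests were chosen with earlier results of these data known. Array values are named for the receptors, the Stat and Irf factors, the called effectors and the 10 effectors with the widest range of group means, and for pathway genes that were called, with up to 2 others per list. Alternatives were the title code as a block, other normalizations, probe set and intensity rules, and leaving out each array. Python 3.11.15 and matplotlib 3.10.9 drew the figures.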

Additional observations from a re-analysis of the deposited data

How the results depend on the processing

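When each array was left out the list median ran from -0.36 to -0.06 for CD34+Flt3hi minus CD34-Flt3-, -0.52 to -0.07 for CD34+Flt3- minus CD34-Flt3- and -0.05 to 0.26 for CD34+Flt3hi minus CD34+Flt3- cells, so the first 2 kept their sign but came down to about the median of all genes without CD34-Flt3- replicate 1. Counts of called members moved as well. For CD34+Flt3hi against CD34-Flt3- cells the count of 4 became 2 without the intensity trend, where Ifih1 (adjusted p = 0.0513) and Ifitm1 (0.0831) lost their calls. It also became 2 when all probe sets were averaged. There the called effectors Ifih1 (adjusted p = 0.0532), Ifitm1 (0.0703) and Rsad2 (0.139) all lost their calls, while Ifnar2 gained one (0.0202). Ifih1 and Ifitm1 have 1 probe set each, so their differences were unchanged there. Over all genes the count of 1112 became 1075 without the intensity trend and 932 with all probe sets averaged. The member count also moved when each array was left out. For CD34+Flt3- against CD34-Flt3- cells the count of 2 became 1 with no intensity trend. It became 0 with the mean of all probe sets and 0 with only the 4 arrays compared. Over all genes the count of 382 became 319, 199 and 47 in the same fits. Both counts also moved when each array was left out. The F count of 2 became 1 with the mean of all probe sets and 4 with quantile normalization repeated, and it moved when each array was left out. Counts over all genes by F are not given here for any alternative.

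The title codes were also fitted as a replicate block, although the pairing is not stated and the code B minus code A differences of the CD34+Flt3hi and CD34+Flt3- groups correlated across genes at only r = 0.07. With the fixed block 6 members were called for CD34+Flt3- against CD34-Flt3- cells, Trim25 (adjusted p = 0.00167), Ifih1 (0.00186) and Ifitm1 (3.95e-06) among them, and 7 by F, and 2 were called for CD34+Flt3hi against CD34+Flt3- cells, Ifnar2 (adjusted p = 0.0351) and Irf1 (0.0217). With the random block the F count was 5. The fixed block fits the code C array exactly, so its comparisons with CD34-Flt3- cells rest on replicate 2 of that group alone. The fixed block also called more of all genes in each comparison. For CD34+Flt3- against CD34-Flt3- cells it called 1579 of all genes, against 382 without it. For CD34+Flt3hi against CD34+Flt3- cells it called 670, against 111 without it. For CD34+Flt3hi against CD34-Flt3- cells it called 2360, against 1112 without it. Of 852 single-gene alternatives 28 lost a call, 24 gained one and none of the called differences reversed, while 39 differences that were not called changed sign. The cause of these shifts was not tested. With 2 arrays per group, precision is low, and Mx1 and the dim probe sets are limited by background.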
